A study of Homo sapiens with 16 samples.

Results

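The response of RPMI-8226 cells to the EZH2 inhibitor GSK126 was compared with that of MM.1S cells, and the genes described here are those that responded in 1 line only or in opposite directions. Both are long-established lines grown from human multiple myeloma, a tumor of plasma cells. Of the 16 arrays of the study, 8 were used for this comparison: RPMI-8226 given the solvent DMSO, RPMI-8226 given GSK126 (1 µM), MM.1S given DMSO and MM.1S given GSK126 (1 µM), each treated for 6 days and each with 2 biological replicates. The other 8 arrays carried the same 2 lines with the G9a inhibitor UNC0638 (1 µM) in both arms, alone or together with GSK126 (1 µM), and were fitted separately to look up the same difference. The labels name no genetic change in any group, and each line stands for 1 tumor only. Each line had a slide and a scan of its own, so that slide, scan and line cannot be told apart. Levels between lines carry that limit, whereas a response within a line was read within 1 slide.

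EZH2 is the catalytic subunit of Polycomb repressive complex PRC2, which trimethylates lysine 27 of histone H3 (H3K27me3) on genes that are held silent. GSK126 competes with the methyl donor of EZH2, and genes whose silence depends on the mark can be transcribed once the mark is lost over several cell divisions. Which genes carry the mark differs between cell types and between tumors, and plasma cells keep genes of earlier B cell stages and of other blood lineages silent.

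Levels are given as normalized log2 intensity, the log2 of a probe's background-subtracted intensity from which that of the array's 75th percentile was taken off, so that 0 is the 75th percentile and a step of 1 is a 2-fold difference. A response is the mean level with GSK126 minus the mean level with DMSO in a line, and the difference of the responses is the response of RPMI-8226 minus that of MM.1S. Between 46.5% and 48.2% of the spots were well above background on the 4 RPMI-8226 arrays, and between 49.9% and 51.3% on the 4 MM.1S arrays. The 10 plasma cell and myeloma markers looked up, among them SDC1, XBP1 and IRF4, were above background on all 8 arrays. Of the mature B cell markers, PAX5 and CD22 were below background on all 8 arrays and MS4A1 was above it on 1. Of 6 monocyte and granulocyte markers, MPO and FCN1 were below background on all 8 arrays, CD14 and CSF3R were above it on all 8, CSF1R was above it on the 4 RPMI-8226 arrays only, and LYZ was not matched to a probe. The summed linear level of the 5 matched monocyte markers, in units of the 75th percentile, was 0.636 to 1.11 with DMSO and 3.54 to 5.79 with GSK126 in RPMI-8226, and 0.360 to 0.406 with DMSO and 0.320 to 0.355 with GSK126 in MM.1S.

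Of 25471 probes tested, 67 were called for the difference of the responses (limma, adjusted p under 0.05), which is 0.263% of the probes. The response was higher in RPMI-8226 for 36 of them (0.141%) and lower for 31 (0.122%). Among the 67, 31 responded in RPMI-8226 only, 23 in MM.1S only and 12 in opposite directions, and 1 fitted none of these descriptions. A probe was said to respond in 1 line only where the response was at least 2-fold there and under 1.5-fold in the other line, and to be opposite where both responses were at least 1.5-fold and differed in sign. Of the 31 in RPMI-8226 only, 30 rose and 1 fell, and all 23 in MM.1S only rose. The 67 probes carried 51 gene symbols, and 10 probes had a placeholder name or none. At an unadjusted p under 0.05 there were 2316 probes. Leaving out 1 array at a time changed the adjusted count: it was 57 or 55 without replicate 1 or 2 of RPMI-8226 DMSO, 38 without replicate 2 of RPMI-8226 GSK126, and 0 without replicate 1 of RPMI-8226 GSK126 or without any 1 of the 4 MM.1S arrays. The probes called in these fits were only in part the 67. All 67 probes kept their sign in each of these 8 fits. These fits reuse the arrays on which the probes were chosen, so the kept signs are no separate support. With the replicate number as a block in both lines limma called 0 probes (3396 at an unadjusted p under 0.05). With the block in RPMI-8226 only, a setting chosen after seeing the data, it called 173, which included 66 of the 67. Same-numbered arrays deviated together in RPMI-8226, and less so in MM.1S.

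Each line also had its own response on the same probes. In RPMI-8226, 248 probes (0.974%) rose and 36 (0.141%) fell, 1.11% in all, and in MM.1S 271 (1.06%) rose and 30 (0.118%) fell, 1.18% in all, so rises made up most calls in both lines. The RPMI-8226 count was between 86 and 107 without replicate 1 of RPMI-8226 GSK126 or any 1 MM.1S array, and 435 without replicate 2 of RPMI-8226 GSK126. The MM.1S count was 4 and 51 without replicates 1 and 2 of MM.1S DMSO, 16 and 68 without replicates 1 and 2 of MM.1S GSK126, and 78 with the replicate number as a block. A fit on the 4 arrays of a line alone called 0 probes in RPMI-8226 (limma, 1752 at an unadjusted p under 0.05) and 523 in MM.1S. The SD of the response over all probes was 0.48 in RPMI-8226 and 0.46 in MM.1S, against 0.38 and 0.24 from the differences between replicates. Across 25471 probes the 2 responses correlated with r = 0.26, where the probes of an array share that array. By size alone, without a test, 194 probes rose and 10 fell at least 2-fold in both lines, 535 rose and 168 fell in RPMI-8226 only, 556 rose and 126 fell in MM.1S only, and 109 and 110 moved in opposite directions, up in RPMI-8226 or up in MM.1S.

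**Figure D1:**
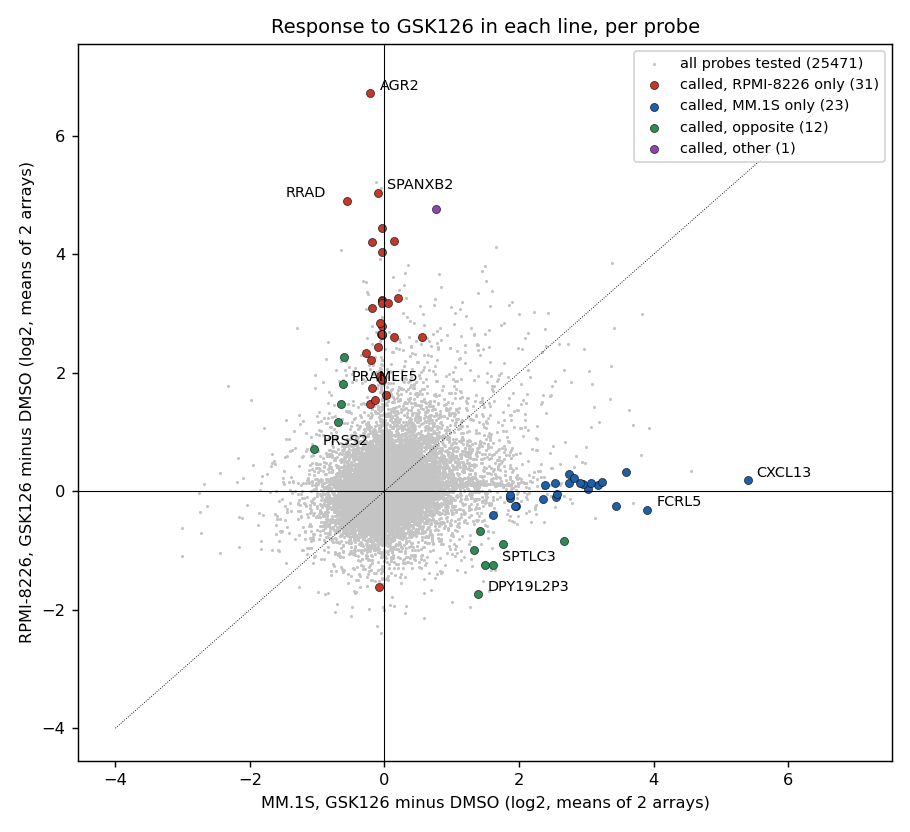
Response to GSK126 of each probe in MM.1S (horizontal axis, log2) and in RPMI-8226 (vertical axis, log2), each a difference of means of 2 arrays. Gray points are the 25471 probes tested and colored points the 67 called for the difference of the responses. The called probes lie along the axes, with AGR2 at the top and CXCL13 at the right, and 12 moved at least 1.5-fold in opposite directions.

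CD14, IL32 and DENND3 were above background on both arrays of all 4 groups and rose in RPMI-8226 only. CD14, the lipopolysaccharide co-receptor of monocytes, read −1.50 and −1.08 with DMSO and 1.16 and 1.46 with GSK126 in RPMI-8226. In MM.1S it read −2.99 and −2.89 with DMSO and −2.84 and −2.76 with GSK126. Both treated RPMI-8226 arrays were above the other 6, and the 4 MM.1S arrays lay close together. The response was 6.08-fold in RPMI-8226, and the difference of the responses was 2.46 ± 0.26 on the log2 scale (SE, n = 2 per group, limma adjusted p = 0.0317). The CD14 probe lies at chr5:140011318-140011377 (GRCh37, minus strand). IL32, which encodes a proinflammatory cytokine, read −3.45 and −3.04 with DMSO and −0.73 and −0.88 with GSK126 in RPMI-8226, and between −3.48 and −3.18 on the 4 MM.1S arrays. Untreated RPMI-8226 overlapped with MM.1S, and both treated RPMI-8226 arrays lay above them (difference 2.54 ± 0.26, adjusted p = 0.0306, with 1 of 2 IL32 probes called). DENND3, an exchange factor for a Rab GTPase, rose from −1.50 and −1.67 to −0.17 and −0.04 in RPMI-8226, and was at 3.55 and 3.51 with DMSO and 3.30 and 3.32 with GSK126 in MM.1S. It was therefore high in MM.1S from the start, and the RPMI-8226 rise of 2.79-fold did not reach that level (difference 1.70 ± 0.18, adjusted p = 0.0317, with 1 of 3 DENND3 probes called).

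In MM.1S only, the highest difference among genes measured in all 4 groups was that of AES (now TLE5), which encodes a short member of the Groucho/TLE corepressor family. It read −2.22 and −2.26 with DMSO and 0.57 and 0.99 with GSK126 in MM.1S, and between 4.08 and 4.13 on the 4 RPMI-8226 arrays. The gene was high in RPMI-8226 with or without the inhibitor, low in untreated MM.1S, and 8.11-fold higher there with GSK126. The difference of the responses was −2.99 ± 0.23 (limma adjusted p = 0.0165). GSTA4, a glutathione S-transferase that detoxifies products of lipid peroxidation, read −2.48 and −2.44 with DMSO and −0.67 and −0.52 with GSK126 in MM.1S, and between 0.27 and 0.58 in RPMI-8226 (difference −1.98 ± 0.21, adjusted p = 0.0322, with 1 of 2 GSTA4 probes called). TRIM46, a protein of axonal microtubules, read −4.55 and −4.61 with DMSO and −2.92 and −2.52 with GSK126 in MM.1S, and between −1.39 and −1.24 in RPMI-8226 (difference −1.92 ± 0.23, adjusted p = 0.0424). For all 3 genes the treated MM.1S arrays were above the untreated ones and below every RPMI-8226 array. Only 1 of the 2 TRIM46 probes tested had a negative difference, and with normexp background correction, whose offset of 50 draws dim signals together, the difference of TRIM46 was −0.75 (adjusted p = 0.135).

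Genes that moved in opposite directions in both lines were fewer. SPTLC3, a subunit of serine palmitoyltransferase, which starts sphingolipid synthesis, read 2.35 and 2.45 with DMSO and 1.09 and 1.22 with GSK126 in RPMI-8226. In MM.1S it read −1.56 and −1.57 with DMSO and −0.07 and 0.17 with GSK126. The gene fell 2.37-fold in RPMI-8226 and rose 3.06-fold in MM.1S, so that the gap between the lines narrowed, and the groups of neither line overlapped. The difference was −2.86 ± 0.19 (limma adjusted p = 0.0129), and all 3 SPTLC3 probes were called, at −2.86, −2.73 and −2.32. DPY19L2P3, a pseudogene of the DPY19L2 family whose probe may also read its relatives, had the same pattern. It read 0.49 and 0.47 with DMSO and −1.33 and −1.18 with GSK126 in RPMI-8226, and −3.16 on both DMSO arrays and −1.83 and −1.69 with GSK126 in MM.1S (difference −3.13 ± 0.18, adjusted p = 0.0123, with 1 of 3 DPY19L2P3 probes called). The responses of both lines were called for DPY19L2P3 (adjusted p = 0.00499 in RPMI-8226 and 0.0133 in MM.1S) and for SPTLC3 (0.0201 and 0.0133).

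For the reverse pattern, higher with GSK126 in RPMI-8226 and lower in MM.1S, only 1 of the lines passed its own test in both named genes. PRSS2, a pancreatic trypsinogen with close paralogs, read 7.55 and 7.64 with DMSO and 8.36 and 8.26 with GSK126 in RPMI-8226, and −2.88 and −2.95 with DMSO and −3.90 and −4.03 with GSK126 in MM.1S. It was high in RPMI-8226 and low in MM.1S, and the gap between the lines widened (difference 1.77 ± 0.18, limma adjusted p = 0.0281). Its fall in MM.1S was called (adjusted p = 0.0218) and its response of 0.72 in RPMI-8226 was not (0.0677). PRAMEF5, of the PRAME family of genes normally expressed in testis, read 1.10 and 0.81 with DMSO and 2.66 and 2.87 with GSK126 in RPMI-8226, and −3.19 and −2.97 with DMSO and −3.61 and −3.78 with GSK126 in MM.1S (difference 2.42 ± 0.24, adjusted p = 0.0269). Its rise in RPMI-8226 was called (adjusted p = 0.0119) and its response of −0.62 in MM.1S was not (0.188). For the difference, 1 of 2 PRAMEF5 probes was called. Members of this family are near-identical, so the signal of PRAMEF5, PRAMEF11 and PRAMEF13 probes cannot be assigned to 1 gene with certainty.

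**Figure D2:**
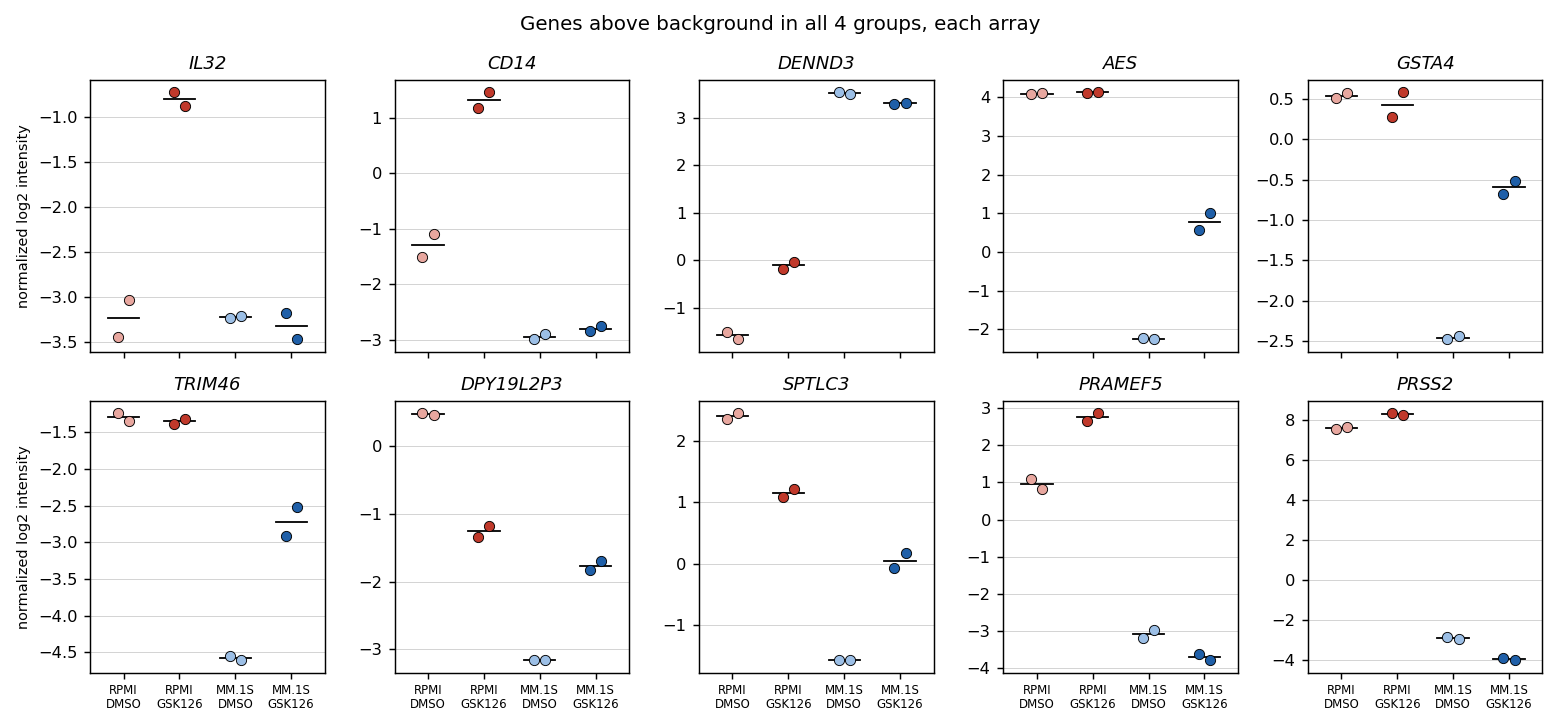
Normalized log2 intensity (vertical axes, which differ between panels) on each of the 8 arrays for 10 named genes above background in all 4 groups. Points are arrays and lines are means of 2 arrays. IL32, CD14 and DENND3 rise in RPMI-8226 only, AES, GSTA4 and TRIM46 in MM.1S only, and the last 4 panels show opposite movements.

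Of all 25471 probes tested, 19040 were above background on all 8 arrays, and a probe could pass the filter through 1 group alone. Most called probes were below background in the line that did not respond, which that filter allows. This held for 38 of the 67, with 14 measured in all 4 groups and 5 in part of them. For a further 6 probes the line that moved was itself below background on all 4 arrays, among them NRCAM and DHRS3 in MM.1S and NT5E, FAM127B (now RTL8A) and NCF1, which has near-identical pseudogenes, in RPMI-8226, and 4 opposite probes had 1 of the lines below background throughout. No fold is given for those 10. Of the other 27 rises in RPMI-8226 only, 14 went from below background with DMSO to above it with GSK126, 12 were above it already with DMSO, and VWA5A was above it on 1 treated array only. Of the other 20 in MM.1S only, 16 went from below to above background and 4 were above it already. In the other line, untreated, 6 of the 27 and 4 of the 20 were above background.

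AGR2, a protein disulfide isomerase of the endoplasmic reticulum known from secretory epithelia, had the highest fold of these genes. It read −5.79 and −4.66 with DMSO, both below background, and 1.55 and 1.43 with GSK126 in RPMI-8226, which is at least 54.8-fold higher. A bound of this kind sets the treated mean against the lowest signal well above background on each DMSO array, or the probe's own signal where that is higher. In MM.1S all 4 arrays were below background, between −6.98 and −6.52. The response in RPMI-8226 was called (limma adjusted p = 0.00215), as was the difference (0.0140). The AGR2 probe runs from base 16837274 to 16839382 of chromosome 7 (GRCh37, minus strand), longer than a single probe and so across an intron. RRAD, a small GTPase of the Ras superfamily, was at least 12.7-fold higher with GSK126 in RPMI-8226 (−0.41 and −0.83, against −5.83 and −5.21 below background with DMSO) and below background on all 4 MM.1S arrays. Untreated and treated RPMI-8226 arrays did not overlap for either gene.

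Other rises in RPMI-8226 with MM.1S below background started from a measured level. SPANXB2, a testis antigen of a family of near-identical genes, went from −2.44 and −1.55 to 3.24 and 2.85 (32.9-fold, adjusted p of the difference 0.0180). The long noncoding RNA UCA1 went from −3.82 and −3.17 to −0.12 and −0.51 (9.05-fold, 0.0324). PAEP, which encodes the secreted protein glycodelin, went from −2.13 and −1.52 to 1.61 and 1.09 (9.02-fold, 0.0397). MM.1S read between −7.19 and −6.71 on all arrays for these 3 genes. SPANXB2 and PAEP each had 1 of 2 probes called for the difference. An unnamed transcript, XLOC_012981, whose probe lies 967 bases from that of UCA1 on chromosome 19, was called in the same direction.

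Of the further rises in RPMI-8226, those of CD180, S1PR1, GIMAP4, GIMAP6 and TGFBI had MM.1S below background, and that of UCHL1 did not. The genes of this paragraph, and TNFAIP2 and those named after it for MM.1S, were chosen after their values were seen. CD180, a Toll-like receptor homolog of B cells, read −5.92 and −5.20 with DMSO and −1.39 and −0.85 with GSK126 and was at least 8.998-fold higher. S1PR1, the sphingosine-1-phosphate receptor that lymphocytes use to leave lymphoid organs, was at least 5.08-fold higher, at −1.94 on both treated arrays. GIMAP4 and GIMAP6, GTPases of lymphocytes from 1 gene cluster on chromosome 7, were at least 3.77-fold and 1.32-fold higher, with probes 53097 bases apart. TGFBI, a secreted matrix protein, was above background from the start at 1.14 and 1.08 and read 3.86 and 3.69 with GSK126, 6.33-fold higher. For these 5 genes the treated RPMI-8226 arrays were above the untreated ones, and the adjusted p of the difference lay between 0.0123 and 0.0223. UCHL1, a neuronal deubiquitinase, was at least 1.72-fold higher with GSK126 in RPMI-8226 (−3.55 and −3.46), while MM.1S carried it at between 7.57 and 7.87 on all 4 arrays.

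CXCL13, the chemokine that draws B cells into follicles, led the MM.1S rises. It read −6.43 and −6.80 with DMSO, both below background, and −0.99 and −1.45 with GSK126 in MM.1S, at least 11.8-fold higher. In RPMI-8226 all 4 arrays were below background, between −6.54 and −6.002. Only treated MM.1S arrays were above background, and the difference was called (limma adjusted p = 0.0123). SCML4, a protein of the Scm Polycomb-like family, was above background in untreated MM.1S at −2.36 and −2.21 and read 0.70 and 0.87 with GSK126, 8.41-fold higher (adjusted p of the difference 0.0165), with RPMI-8226 below background. JAM2, a junctional adhesion molecule, was at least 3.37-fold higher at −3.20 and −2.87, and SBK1, a kinase, at least 3.06-fold higher at −3.01 and −3.33. For the difference, 1 of 2 SCML4 probes and 1 of 3 JAM2 probes were called. With normexp background correction the differences of JAM2 and SBK1 were −0.77 and −0.52 and not called (adjusted p = 0.246 and 0.619).

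FCRL5, an Fc receptor-like surface protein of B cells and plasma cells, was called with all 3 of its probes. The probe with the widest difference read −5.62 and −5.73 with DMSO and −1.98 and −1.55 with GSK126 in MM.1S, at least 8.10-fold higher, with RPMI-8226 below background (adjusted p of the difference 0.0197). The other probes were at least 1.52-fold and 6.39-fold higher in MM.1S, and with the latter RPMI-8226 read −4.11 and −4.88 with DMSO and −5.62 and −5.05 with GSK126. TNFAIP2, a gene induced by tumor necrosis factor, was at least 1.64-fold higher in treated MM.1S at −4.23 and −3.91, and RPMI-8226 read between 3.48 and 3.96. Further MM.1S-only rises from below background were those of DACT1, an inhibitor of Wnt signaling, VWC2, an antagonist of bone morphogenetic proteins, LOR (now LORICRIN), a protein of the epidermal barrier, SLC24A3, LY6D, DMRTC1 and RILPL1, with bounds between 1.30-fold and 2.61-fold.

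**Figure D3:**
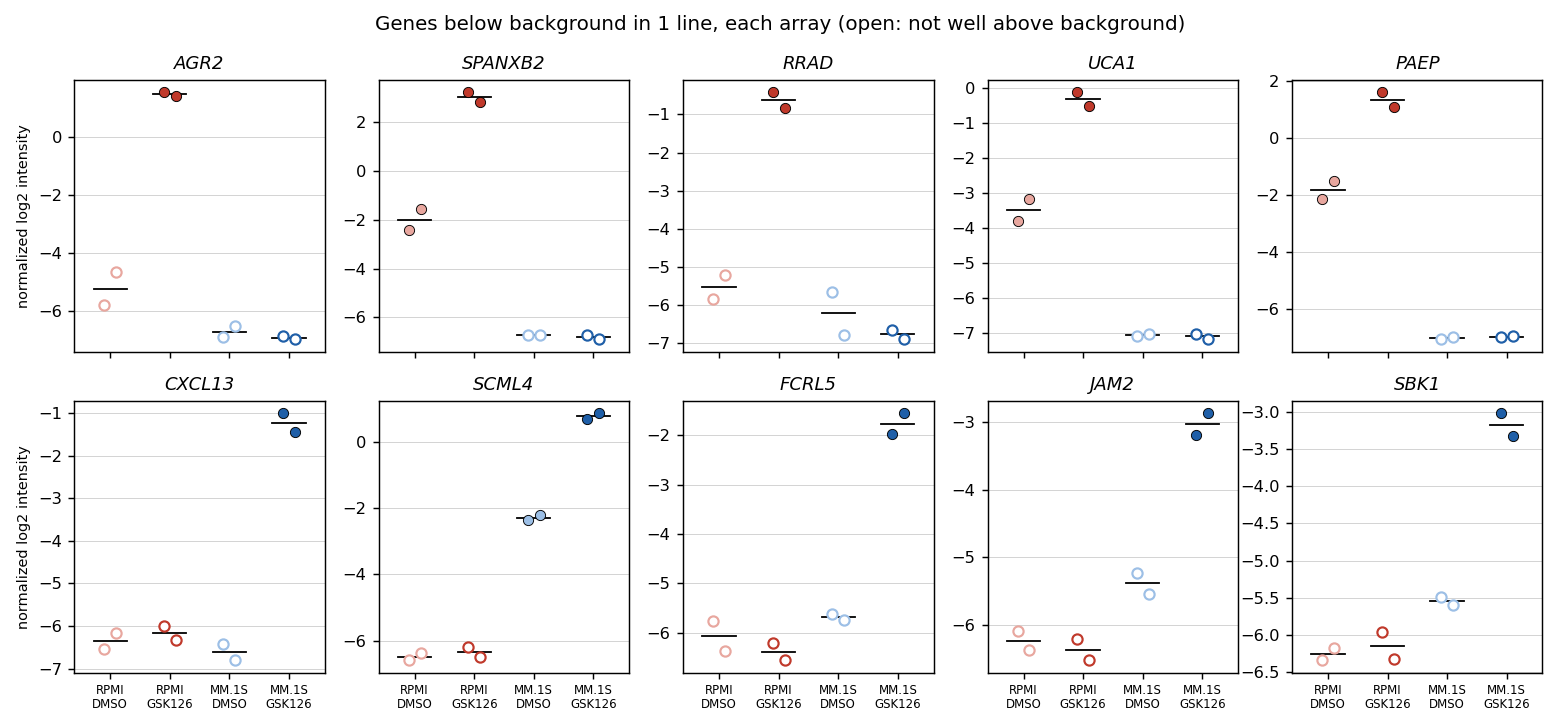
Normalized log2 intensity (vertical axes, which differ between panels) on each of the 8 arrays for the 10 named genes that were below background on all 4 arrays of 1 line. Open points are not well above background and lines are means of 2 arrays. The upper 5 genes rise in RPMI-8226 with all MM.1S points open, and the lower 5 rise in MM.1S with all RPMI-8226 points open.

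The sequence around the start of 4 of these genes is shown, 1 for each kind of single-line rise, to show the CG dinucleotides near the start of genes that rose in 1 line only. They are RefSeq promoters on GRCh38.p14, 300 bases each and nearly all upstream of the start, written 5′ to 3′ on the gene's strand with each CG in capitals, and were taken as the named gene with the largest difference or fold among those with an entry and 1 listed start. CD14 and AGR2 rose in RPMI-8226, GSTA4 and SCML4 in MM.1S.
CD14, chr5:140633126-140633425, minus strand: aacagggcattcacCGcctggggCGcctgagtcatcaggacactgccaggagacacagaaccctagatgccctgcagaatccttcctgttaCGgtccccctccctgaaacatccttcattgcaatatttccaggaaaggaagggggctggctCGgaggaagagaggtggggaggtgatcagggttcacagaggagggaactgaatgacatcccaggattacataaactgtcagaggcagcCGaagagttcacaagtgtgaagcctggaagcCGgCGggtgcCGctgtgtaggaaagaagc
AGR2, chr7:16804950-16805249, minus strand: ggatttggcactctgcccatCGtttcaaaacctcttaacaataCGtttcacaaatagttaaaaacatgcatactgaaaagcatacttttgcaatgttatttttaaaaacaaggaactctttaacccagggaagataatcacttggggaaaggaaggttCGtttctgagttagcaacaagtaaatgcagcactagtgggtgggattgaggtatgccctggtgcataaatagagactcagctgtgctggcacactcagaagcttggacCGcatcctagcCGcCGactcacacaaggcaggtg
GSTA4, chr6:52995235-52995534, minus strand: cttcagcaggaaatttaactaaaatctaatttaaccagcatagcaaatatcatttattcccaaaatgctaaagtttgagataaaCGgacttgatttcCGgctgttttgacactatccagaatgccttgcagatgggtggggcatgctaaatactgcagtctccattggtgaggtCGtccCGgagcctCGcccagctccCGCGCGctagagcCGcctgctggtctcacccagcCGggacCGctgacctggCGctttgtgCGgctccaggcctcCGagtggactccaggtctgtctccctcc
SCML4, chr6:107732101-107732400, minus strand: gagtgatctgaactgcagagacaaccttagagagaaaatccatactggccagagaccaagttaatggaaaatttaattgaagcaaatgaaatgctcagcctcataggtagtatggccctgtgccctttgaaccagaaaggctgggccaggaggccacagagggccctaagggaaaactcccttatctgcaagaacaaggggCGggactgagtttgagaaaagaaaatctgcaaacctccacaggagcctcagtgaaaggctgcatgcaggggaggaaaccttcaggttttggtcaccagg

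These held 8, 6, 14 and 1 CG, in this order, beside a median of 14 over 27305 RefSeq promoters. Of all those 27305 promoters, 42.1%, 37.5%, 51.2% and 11.5% held no more. CG searched on either strand is the same count. A comparison of CG content between the called genes and all genes tested was void, because a promoter was found for 25 of 31 called genes with the higher response in RPMI-8226 but for 13 of 20 with the lower one (65.0%) and for 77.8% of all 14220 genes.

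The other 8 arrays, in which both arms of each line were given UNC0638, share no array with the comparison above. The same difference of the GSK126 responses was called there for 337 of 26320 probes (1.28%). That count was 189 and 578 without replicate 1 of RPMI-8226 UNC0638 and replicate 2 of RPMI-8226 GSK126+UNC0638, 92 and 117 without replicates 1 and 2 of MM.1S UNC0638, and 64 and 43 without replicates 1 and 2 of MM.1S GSK126+UNC0638. Of the 67 called probes, 64 were tested in those arrays, 60 had the same sign, 53 had the same sign with an unadjusted p under 0.05, and 25 were also called. Over all 24863 probes tested in both sets, 63.4% had the same sign in both, 10.6% had it with an unadjusted p under 0.05 in the second, and 0.829% had it and were called in the second. All 29 RPMI-8226-only probes tested kept their sign, 27 of them with p under 0.05. For MM.1S only it was 21 of 23, and 17, and for opposite probes 9 of 11, and 8. Across the 24863 probes the 2 differences correlated with r = 0.50, with each line on the same slide in both sets.

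AGR2, CXCL13 and CD14 also differed in cells given UNC0638. The difference was 6.86 for AGR2 (6.93 without UNC0638), −4.45 for CXCL13 (−5.21) and 2.44 for CD14 (2.46), and limma called each of them there (adjusted p = 0.00101, 0.00482 and 0.0258). AGR2 was below background on all 4 MM.1S arrays and on the 2 RPMI-8226 arrays given UNC0638 alone. CXCL13 was below it on all 4 RPMI-8226 arrays. The sizes for these 2 genes are therefore fitted and not measured ones. Of the other genes named by rule among the called probes, IL32, JAM2, SCML4, PRSS2, RRAD, PRAMEF5 and UCA1 kept their sign there. None of these was called (limma adjusted p between 0.0654 and 0.163). FCRL5 and SBK1 were not called there either. Both were below background on the 2 RPMI-8226 arrays given UNC0638 alone, so that their fitted differences of −0.02 and 0.47 are not measured ones. The named FCRL5 probe was above background on 1 of the 2 RPMI-8226 arrays given both inhibitors, and its MM.1S level was already −0.96 and −0.42 with UNC0638 alone. The other FCRL5 probes had differences of −2.21 and −0.93, the latter with RPMI-8226 below background on all 4 of these arrays. SBK1 read −3.60 and −3.36 in RPMI-8226 given both inhibitors, above background on both. The change of the difference with UNC0638 itself was called for 7 of 25471 probes (1152 at an unadjusted p under 0.05), with 2 of the 67 among them, OR10G9, an olfactory receptor gene, and the unnamed XLOC_l2_014077, each with 1 line below background. For FCRL5 and SBK1 it was −4.20 and −2.74 (adjusted p = 0.457 for both) and not called.

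**Figure D4:**
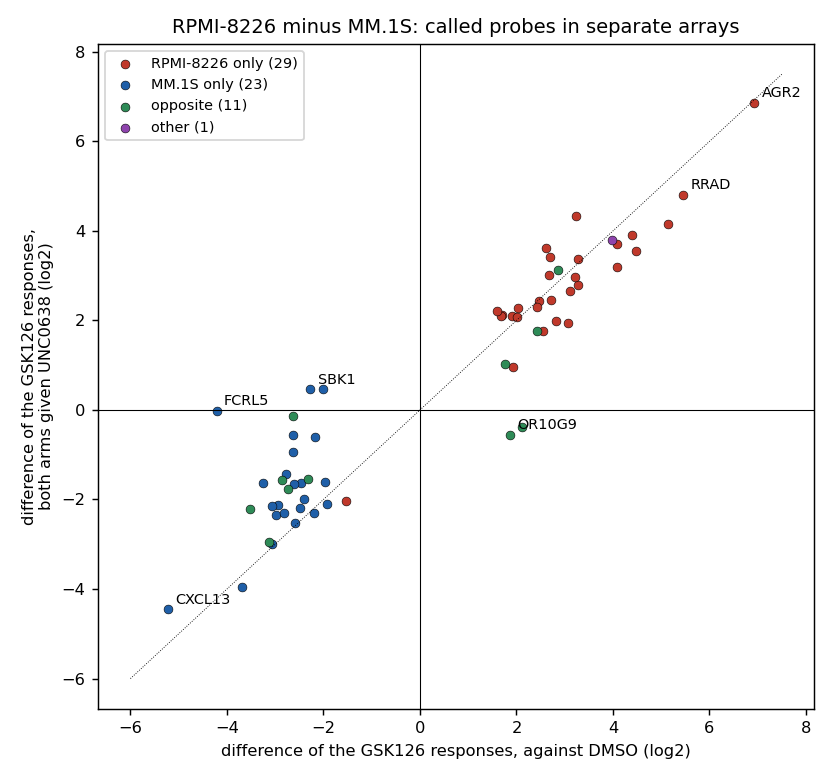
Difference of the GSK126 responses, RPMI-8226 minus MM.1S, for the 64 called probes tested in both sets: against DMSO (horizontal axis, log2) and with UNC0638 in both arms (vertical axis, log2). The dotted line marks equal values. All 29 RPMI-8226-only probes have the same sign in both, and FCRL5, SBK1 and OR10G9 are among those near or across 0 on the vertical axis.

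Called members of the 19 gene lists were few. In all, 43 of 14220 genes, each read at its brightest probe, were called for the difference (0.302%). Of the listed genes, CD180 and FCRL5 among 30 B cell identity genes, CD14 among 32 myeloid and granulocyte genes, S1PR1 among 40 adhesion and homing genes, IL32 and CXCL13 among 40 chemokine and cytokine ligands and TNFAIP2 among 28 NF-kappaB pathway genes were called, and no member of the other 14 lists was. At an unadjusted p under 0.05, 1357 genes (9.54%) had a difference.

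Cholesterol synthesis and uptake genes, which the SREBP transcription factors drive together, were lower with GSK126 in MM.1S on average and not in RPMI-8226, with none of the 31 called in either line. Their mean level over 31 genes was 3.05 and 2.997 with DMSO and 2.27 and 2.61 with GSK126 in MM.1S. In RPMI-8226 it was 3.01 and 3.003 with DMSO and 2.98 and 3.11 with GSK126. The treated MM.1S arrays were thus below the other 6, which lay close together. The median response was −0.65 in MM.1S and 0.00 in RPMI-8226, against −0.05 and −0.03 over all genes. The difference was positive for 30 of 31 genes, with a median of 0.64, against 7373 of 14220 and a median of 0.01 over all genes, and 16 of the 31 had an unadjusted p under 0.05. HMGCS1 and FASN, enzymes of cholesterol and fatty acid synthesis chosen after their values were seen, had differences of 1.12 and 1.09 (limma adjusted p = 0.370 and 0.313). With UNC0638 in both arms the median difference was 0.42, with 25 of 31 positive.

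Genes of the amino acid response, which the transcription factor ATF4 turns on when amino acids are short, had a mean level over 49 genes of 1.90 and 2.21 with DMSO and 1.09 and 1.27 with GSK126 in MM.1S. In RPMI-8226 it was 2.36 and 2.22 with DMSO and 1.996 and 2.05 with GSK126. The treated arrays were lower in both lines, and by more in MM.1S. The median response was −0.78 in MM.1S and −0.31 in RPMI-8226. In MM.1S 7 of the 49 were called lower, CHAC1, CBS, SLC6A9, JDP2, SLC7A11, PSAT1 and PYCR1, against 0.148% of all genes. In RPMI-8226 it was 1, VLDLR, against 0.0985%. CHAC1, which degrades glutathione, fell by 2.72 in MM.1S (limma adjusted p = 0.0141), SLC7A11, the cystine transporter, by 1.80 (0.0242) and CBS, a synthase of the transsulfuration pathway, by 2.04 (0.0385). Their responses in RPMI-8226 were −0.70, −0.40 and −0.23, and the adjusted p of the difference was 0.138, 0.204 and 0.216. The difference was positive for 43 of 49 genes, with a median of 0.59 and 23 at an unadjusted p under 0.05. With UNC0638 in both arms it was positive for 25 of 49, with a median of 0.01, and the lines had median responses of −0.35 and −0.38.

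Myeloid and granulocyte genes were higher with GSK126 in RPMI-8226 on average. Their mean level over 32 genes was −1.40 and −1.31 with DMSO and −0.14 and −0.29 with GSK126 in RPMI-8226, and −1.94 and −1.98 with DMSO and −1.80 and −1.79 with GSK126 in MM.1S. Treated RPMI-8226 arrays were above all others. The difference was positive for 27 of 32 genes, with a median of 0.86, and 4 genes were called higher in RPMI-8226 on their own, CD14, ITGAM, FCGR2C and FCGR2B, against 1.26% of all genes. ITGAM, an integrin of phagocytes, rose by 2.75 (limma adjusted p = 0.0229) and had a difference of 1.93 (0.222). FCGR2B and FCGR2C are near-identical Fc receptor genes, and their probes cannot be assigned with certainty. The summed monocyte markers given above also rose, but they share CD14 with this list and are no separate result. MPO and FCN1 were below background on all 8 arrays. Also higher with GSK126 in RPMI-8226 were the summed levels of 7 T cell and NK cell markers (0.793 to 0.842 with DMSO and 1.28 to 1.92 with GSK126 in RPMI-8226, and 0.889 to 0.921 in MM.1S) and of 4 mature B cell markers (0.0471 to 0.0604, then 0.0980 to 0.138, and 0.0376 to 0.0497 in MM.1S). The summed plasma cell, erythroid, and epithelial and stromal markers were lower with GSK126 in RPMI-8226. With DMSO they were 314.1 to 366.5, 0.737 to 0.754 and 27.9 to 38.5. With GSK126 they were 279.5 to 303.6, 0.520 to 0.681 and 21.0 to 24.5. In MM.1S the plasma cell sum was lower too, and the erythroid and epithelial sums were higher. CD3E, NKG7 and GNLY of the T cell and NK cell list were below background on all 4 RPMI-8226 arrays. The part of these marker genes in the result was not tested. Chemokine and cytokine ligands had a median difference of 0.53 (0.25 without replicate 1 of RPMI-8226 DMSO, and 0.38 to 0.61 without any other array), positive for 23 of 40, with genes on both sides. CXCL8, which attracts neutrophils, rose by 2.22 in RPMI-8226 (0.0258), and CCL25 rose by 2.11 in MM.1S (0.0238), with differences of 2.26 and −2.21 that were not called (0.117 and 0.107).

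HOX genes, classical targets of Polycomb silencing that give cells positional identity, had a median difference of −0.33. It was −0.13 and −0.52 without replicates 2 and 1 of MM.1S DMSO, −0.56 without replicate 1 of RPMI-8226 GSK126 and −0.49 without replicate 2 of RPMI-8226 DMSO. Of 39 genes on the list 10 were tested, and 4 were called higher in MM.1S, HOXB2, HOXB5, HOXB6 and HOXB9, against 1.44% of all genes. HOXB6 rose by 3.93 in MM.1S (limma adjusted p = 0.0132) and read 1.06 for its response in RPMI-8226 (0.259), and HOXB5 rose by 3.63 (0.00590) and by 1.37 (0.0439). Their differences were −2.87 and −2.26 and were not called (0.103 and 0.0556). CDKN1C, which encodes the cell cycle inhibitor p57 and belongs to the list of p53 targets and CDK inhibitors, rose by 1.49 in MM.1S (0.0161), with a difference of −1.69 (0.0517).

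The genes that the study singled out were not called for the difference. The 12 looked up included IRF4, MYC, KLF2 and PRDM1, which the study places in an IRF4-MYC axis. Also among them were the interferon-stimulated genes OAS3, IFI6, IRF9, IFIT1 and ISG15. Over the 12, the limma adjusted p of the difference was between 0.393 and 0.991. EZH2 itself responded by −0.21 in RPMI-8226 and −0.03 in MM.1S, and EHMT2, which encodes G9a, by −0.06 and −0.08. OAS3, a sensor of double-stranded RNA, read −6.26 and −4.51 with DMSO, both below background, and −2.61 and −3.57 with GSK126 in RPMI-8226, at least 2.29-fold higher, and responded by −0.34 in MM.1S. Its fitted difference was 2.64 (limma adjusted p = 0.393), and 0.67 with normexp background correction. In cells given UNC0638 it was 2.62 and was called (limma adjusted p = 0.0455), with 1 of the 2 RPMI-8226 arrays given UNC0638 alone below background. Over 54 type I interferon-stimulated genes the median response was 0.69 in RPMI-8226 and 0.41 in MM.1S. The difference was positive for 38 of them, with a median of 0.18 (0.30 without replicate 2 of RPMI-8226 GSK126, and 0.17 to 0.27 without any other array), and in cells given UNC0638 for 47, with a median of 0.57. Without UNC0638, 14 of the 54 had a difference at an unadjusted p under 0.05 (limma), against 9.54% of all genes, and 0 were called. TRIM22 and PARP9, both interferon-induced and chosen after their values were seen, rose in both lines, by 2.35 and 2.05 in RPMI-8226 and by 2.35 and 2.13 in MM.1S, and all 4 responses were called. Each is read at 1 probe, and the 2 genes do not stand for the list. Another PARP9 probe ranked between HOXB6 and CCL25 for the difference and, like those genes, was not called.

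**Figure D5:**
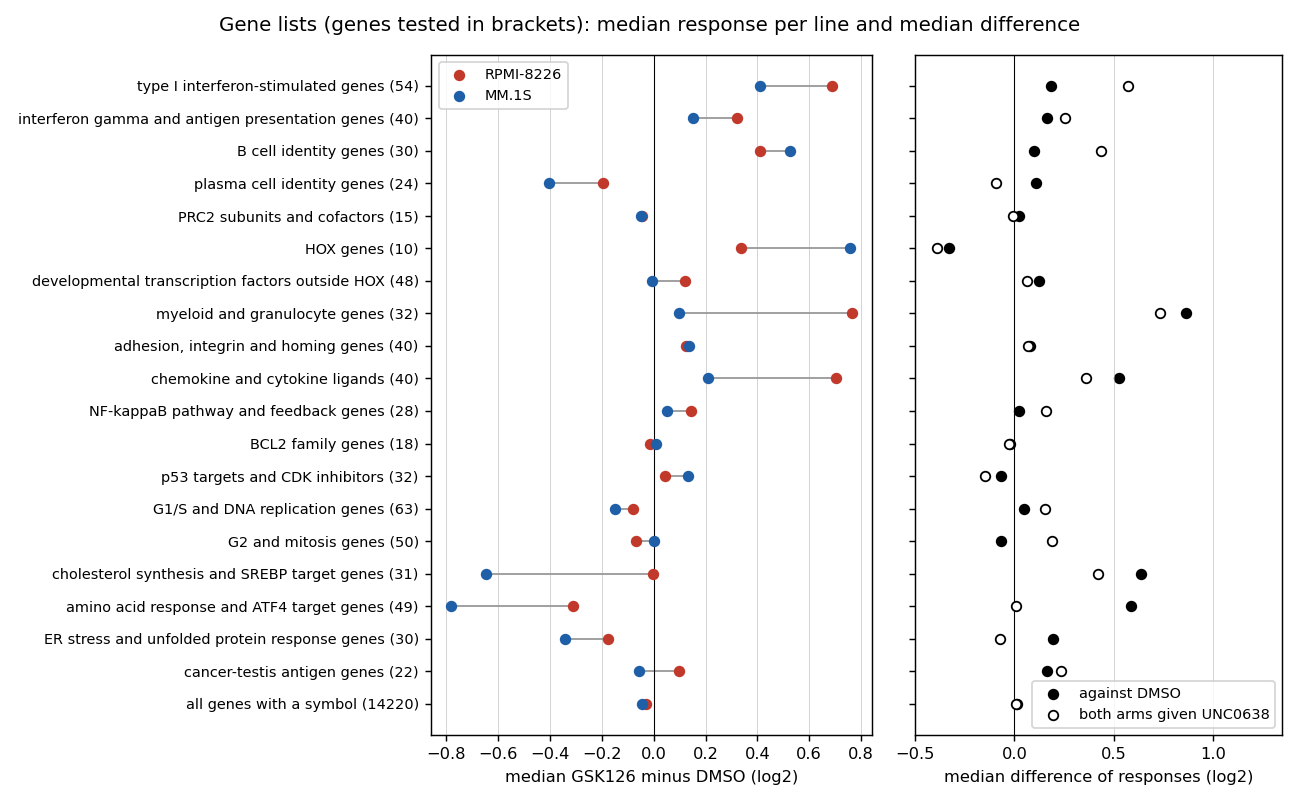
Left, median response to GSK126 over the genes of each list in RPMI-8226 and in MM.1S (horizontal axis, log2). Right, median difference of the responses, RPMI-8226 minus MM.1S, against DMSO and with UNC0638 in both arms (horizontal axis, log2). The number of genes tested is in brackets. The highest median differences against DMSO are those of the myeloid (0.86), cholesterol (0.64), amino acid (0.59) and chemokine (0.53) lists, and that of the amino acid list is 0.01 with UNC0638.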

How the data were processed

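RNA of RPMI-8226 and MM.1S cells had been hybridized to 1-color Agilent arrays of 62976 spots and 50599 probes (16 arrays, 8 used for the main comparison). The deposited values were background-subtracted processed intensity per spot, which the authors extracted with Agilent Feature Extraction 10.7 per the submitters' processing notes, and probe positions were on GRCh37 per the file headers. The series table of processed values that the authors deposited equaled these intensities for 99.9958% of 1007616 values after rounding to 3 significant digits. No test or normalization for the arrays is given in the sources used here. Control spots and outlier flags were excluded, spots of a probe were averaged, and the log2 of the deposited intensity minus the array's 75th percentile was used (no spot was saturated). The number of arrays, 2 per group, limits the precision, and p-values measure the spread between biological replicates on 1 slide per line.

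Probes that 1 or more of the 4 groups showed above background on each array were fitted with limma 3.58.1 (R 4.3.3), 1 mean per group, with Benjamini-Hochberg adjustment over 25471 probes and a two-sided threshold of 0.05. The UNC0638 arrays were fitted in the same way on their own (26320 probes), and a fit over all 16 arrays tested the change of the difference with UNC0638. On simulated data for the main comparison (25471 probes), 40% of probes with a difference of 1.5 on the log2 scale and 81% of those with 3 were recovered, with 12 false among 133 calls.

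Genes were named by rule: up to 5 with the largest difference per class and direction among probes above background in all groups, up to 5 with the largest fold where 1 line was below background, and 12 genes named by the study. Some genes that met the rule or stood on a marker list are not reported here. Any other gene named was chosen after its values were seen. The rule named no placeholder symbol and no sex-linked control gene. Members and gene lists were chosen with earlier results of these data known. A list took each gene's brightest probe, 14220 genes, of which 14152 matched RefSeq. Same-numbered arrays deviated together in RPMI-8226 (6 of 6 pairs of groups, r = 0.205 to 0.347) and less so in MM.1S (5 of 6, 0.0845 to 0.210). The labels do not say whether equal numbers mark a shared culture, and the main fit took no numbers as paired. The alternatives were other scalings, background correction, filters, variance models, sets of arrays, a replicate block and each array left out. The block in RPMI-8226 only and the lookup in the UNC0638 arrays were chosen after seeing the data. Columns of samples outside the series numbered 0.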

Additional observations from a re-analysis of the deposited data

Results flagged for a closer look

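For 20 named genes the response to GSK126 differed between the 2 lines by the test of the difference itself (limma adjusted p under 0.05 for each). Rises in RPMI-8226 with a smaller or no called response in MM.1S gave differences of 6.93 for AGR2, 5.46 for RRAD, 5.14 for SPANXB2, 3.21 for UCA1, 3.12 for PAEP, 2.54 for IL32, 2.46 for CD14 and 1.70 for DENND3 on the log2 scale. Rises in MM.1S with none called in RPMI-8226 gave −5.21 for CXCL13, −4.22 for FCRL5, −2.99 for AES, −2.93 for SCML4, −2.49 for JAM2, −2.27 for SBK1, −1.98 for GSTA4 and −1.92 for TRIM46. Responses of opposite sign gave −3.13 for DPY19L2P3, −2.86 for SPTLC3, 2.42 for PRAMEF5 and 1.77 for PRSS2. The fitted values of AGR2, RRAD, SPANXB2, UCA1, PAEP, CXCL13, FCRL5, SCML4, JAM2 and SBK1 rest on 1 line that was below background on all 4 arrays and are no bound.

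The difference between the lines itself differed between cells without and with UNC0638 for OR10G9 by 2.41 (limma adjusted p = 0.0176) and for XLOC_l2_014077 by −2.50 (adjusted p = 0.0193), without minus with UNC0638. In both, RPMI-8226 was below background on all 4 arrays without UNC0638.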

How the results depend on the processing

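All 20 named genes kept the sign of the difference in every alternative that tested them, on the arrays on which they were chosen. Of the 20, 0 stayed called with the replicate number as a block in both lines and 3 with no filter. With 1 variance per line 16 stayed called, with normexp 17 and with quantile scaling 18. Each array left out ended some or all of these calls. No other call rule or scaling (quantile, another percentile, the series table) moved a total count by over 1.5 times. Quantile scaling gave 211 higher and 56 lower calls in RPMI-8226 (248 and 36 before). Probes called for the difference numbered 67, against 124 with normexp background correction (30 shared), 7 with no filter, 14 with probes above background on all 8 arrays, and 209 in 1 fit over all 16 arrays (50 shared). With the replicate number as a block in both lines the count was 0, and with the block in RPMI-8226 only 173. Leaving out 1 array at a time gave 0 to 57. Probes called in RPMI-8226 numbered 284, against 134 with no filter, 101 on all 8 arrays, 594 over 16 arrays, 60 with 1 variance per line, 0 with the 4 arrays of the line alone, and 86 to 435 with 1 array left out. Those in MM.1S numbered 301, against 124, 178, 787, 1891 and 523 in the same settings, 78 with the replicate block, and 4 to 256 with 1 array left out. In cells given UNC0638 the difference was called for 337, against 666 with normexp, 217 with no filter, 106 on all 8 arrays, 604 over 16 arrays, and 43 to 578 with 1 array left out. Normexp gave 337 higher and 106 lower calls in MM.1S (271 and 30 before) and 353 and 313 in cells given UNC0638 (223 and 114 before). An intensity-dependent prior variance gave 339 and 96 in MM.1S. For the difference it called 67 probes as well, of which only 33 were among the 67 of the main fit. Normexp moved the differences of AGR2 to 3.66, RRAD to 2.02, UCA1 to 1.93, IL32 to 1.30, PRSS2 to 1.16, DPY19L2P3 to −2.03, CXCL13 to −1.80 and FCRL5 to −1.41, all still called, and ended the calls of TRIM46, JAM2 and SBK1. Fewer probes are tested under the stricter filter, and the cause of the other changes was not tested. Median differences over alternative scalings ranged from 0.57 to 0.64 for the cholesterol list, 0.53 to 0.59 for the amino acid list, 0.43 to 0.86 for the myeloid list and −0.39 to −0.07 for HOX genes.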
